A study of Homo sapiens with 12 samples.

Results

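The genes described here encode the cargo, the processing enzymes and a membrane marker of the regulated secretory pathway: the granins CHGA, CHGB, SCG2, SCG3 and VGF, the prohormone convertases PCSK1 and PCSK2, the convertase chaperone SCG5, the carboxypeptidase CPE and the vesicle protein SYP. They were chosen by name, and they are 10 of the 20136 protein-coding genes on chromosomes 1 to 22, X and Y. H3K4me3 is a histone mark of active gene starts, and it was mapped by CUT&RUN, in which an antibody tethers a nuclease to chromatin and the released DNA is sequenced. The cells were BON1, a human pancreatic neuroendocrine tumor line, in a control version (BON1/TGL/pQ) and a version that overexpresses HA-tagged Bcl-xL (BON1/TGL/HA-Bcl-xL), an inhibitor of apoptosis. Both versions were grown with puromycin at 0.5 µg/ml, and 500000 cells were used per condition. An IgG reaction measured background in each line. The labels give 3 replicates of each line and antibody, 12 samples in all. The lists of 11 libraries were used, and the H3K4me3 list of HA-Bcl-xL replicate 1 was not used here. No label says that replicates came from separate cultures, so p-values measure only the spread between these samples.

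Endocrine and neuroendocrine cells store peptide hormones in dense-core granules and release them on demand. Granins are acidic proteins that aggregate in the trans-Golgi network and help to form these granules, and several of them are also cut into peptides. The convertases PC1/3 (PCSK1) and PC2 (PCSK2) cut prohormones at pairs of basic residues, and carboxypeptidase E (CPE) then removes those residues.

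Part of the family has a promoter element in common that the choice of genes did not use. The cAMP response element TGACGTCA, which reads the same on both strands and is bound by CREB-family factors, was searched for in the 250 bases before the start of each gene's Ensembl canonical transcript. It was present in 5 of the 10 genes, among them SCG2, PCSK1 and VGF, and in 2.39% of all 20136 promoters. The element lay at -69 to -62 in SCG2, -77 to -70 in PCSK1 and -79 to -72 in VGF, counted from the transcript start. These positions are for 3 of the 5 genes and do not give the full range. The 200 bases just before the start of these 3 genes are shown because the position of the element can be compared with the peaks described below, with the SCG3 promoter, which held no match, beside them. The build is GRCh37, and each run is on the gene's own strand: SCG2 chr2:224467080-224467279 (-), PCSK1 chr5:95768953-95769152 (-), VGF chr7:100808851-100809050 (-) and SCG3 chr15:51973489-51973688 (+). Capitals mark the element, its core TGACG, the TATA box TATAAA and the GC box GGGCGG, on either strand.
SCG2: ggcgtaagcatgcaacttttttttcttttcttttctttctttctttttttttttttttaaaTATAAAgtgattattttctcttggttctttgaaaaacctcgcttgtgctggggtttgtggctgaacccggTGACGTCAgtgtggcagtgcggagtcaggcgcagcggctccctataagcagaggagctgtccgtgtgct
PCSK1: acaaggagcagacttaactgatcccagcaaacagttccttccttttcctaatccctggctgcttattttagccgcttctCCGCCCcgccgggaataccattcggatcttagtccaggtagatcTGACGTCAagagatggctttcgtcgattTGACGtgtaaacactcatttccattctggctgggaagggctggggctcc
VGF: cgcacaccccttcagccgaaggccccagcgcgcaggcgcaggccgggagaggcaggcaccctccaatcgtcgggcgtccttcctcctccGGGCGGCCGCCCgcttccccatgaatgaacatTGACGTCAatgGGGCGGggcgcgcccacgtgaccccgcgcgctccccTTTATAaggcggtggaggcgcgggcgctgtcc
SCG3: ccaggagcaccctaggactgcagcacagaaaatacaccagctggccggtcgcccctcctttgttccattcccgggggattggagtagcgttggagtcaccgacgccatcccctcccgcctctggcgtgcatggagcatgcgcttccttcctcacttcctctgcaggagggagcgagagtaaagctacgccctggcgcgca

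The shorter core TGACG, which overlaps the full element, was present in 8 of the 10 genes and in 25.3% of all promoters on either strand. TATAAA was present in SCG2, at -139 to -134, and on the other strand in VGF, at -32 to -27. Of all promoters 9.41% held it. GGGCGG was present in 7 of the 10 genes against 58.7% of all promoters, and SCG2 was among the 3 that held none. A match is a description of these letters only. Over the 481 genes with the full element, 30.6% carried H3K4me3 within 1 kb of the 5′ end in every one of the 5 libraries and 66.7% in 1 or more. Over all genes these shares were 21.3% and 48.2%. The element was searched before the canonical start, while the peak was scored around the most 5′ end, and these can differ.

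The H3K4me3 lists held 17711, 12159 and 10247 peaks in control replicates 1 to 3. They held 16379 and 15497 peaks in replicates 2 and 3 of the HA-Bcl-xL line. The IgG lists held 1699, 1674 and 2113 peaks in the control line and 268, 266 and 244 in the HA-Bcl-xL line. The lists give no read totals, so the depth is unknown, and counts of peaks per gene are read against the same count over all genes in that library. Of 7 neuroendocrine marker genes (CHGA, SYP, INSM1, NKX2-2, ENO2, NCAM1 and DDC), 0 had a promoter peak (1 with any base within 1 kb of the gene's 5′ end) in every H3K4me3 library, against 21.3% of all genes, and 5 had one in none, against 51.8%. Of the 3 epithelial markers, the keratin genes KRT8 and KRT18 had one in all 5 libraries and EPCAM in 4, and the acinar, immune, fibroblast and endothelial markers that matched the annotation had one in none.

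The 10 genes fell into 3 groups by H3K4me3 near the most 5′ end. CHGB, SCG2 and SCG3, all granins, had a promoter peak in all 5 libraries. PCSK1 and VGF had one in 3 libraries, SYP in 2 and CHGA in 1. With lists cut to equal length, or to a −log10 q of 5 or more, the first 3 genes kept theirs in all 5 and CHGA in 1, while VGF had one in 2 libraries, PCSK1 in 1 and SYP in 0, none of them HA-Bcl-xL. SCG5, PCSK2 and CPE had one in none. Around the canonical transcript start CPE had one in 3 libraries, 1 control and 2 HA-Bcl-xL, while SCG5 and PCSK2 again had one in none. Over all protein-coding genes, 21.3% had such a peak in all 5 libraries, 48.2% in at least 1 and 51.8% in none, and the counts for this family were 3, 7 and 3 of 10.

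Per library, 6, 4 and 5 of the 10 genes had a promoter peak in control replicates 1 to 3 (5 ± 1, SD, n = 3). In replicates 2 and 3 of the HA-Bcl-xL line 6 and 3 had one (4.5 ± 2.12, SD, n = 2). The difference of -0.5 genes was smaller than the spread between libraries. With lists cut to equal length, or to peaks with a −log10 q of 5 or more, the counts were 4.33 ± 0.577 (SD, n = 3) in control and 3 ± 0 (SD, n = 2) in HA-Bcl-xL, and the difference of -1.33 was then larger than that spread. With the full lists it was -2 without HA-Bcl-xL replicate 2 and 1 without HA-Bcl-xL replicate 3, and it was 0.167 with any or the canonical transcript start, so its direction depended on single libraries and on the start used. With the full lists the share of all genes with a promoter peak was 40.4, 32.4 and 28.2% in the control libraries and 38.1 and 36.5% in the HA-Bcl-xL libraries. HA-Bcl-xL replicate 3 therefore combined the third-highest share over all genes with the lowest count in this family. No such share is given here for the cut lists, so the difference of -1.33 cannot be read against all genes. In the family, 0 genes had a peak in the 2 HA-Bcl-xL libraries while lacking one in every control (0.844% of all genes did), and 0 had the opposite pattern (0.248%).

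Wider windows added little. Within 2.5 kb and within 10 kb of the 5′ end, 7 of the 10 genes again had an H3K4me3 peak in at least 1 library, against 53.5% and 60.5% of all genes. Within 1 kb of any annotated transcript start the count was 8 of 10 in at least 1 library (56.6% of all genes) and 3 of 10 in all 5 (26.5%). CPE was the gene added. Within 2.5 and 10 kb of any start the count stayed at 8 of 10, against 59.1% and 65.3% of all genes.

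Of the 6 IgG libraries, none had a peak within 1 kb of the 5′ end of any of the 10 genes (0.785% of all genes had one in at least 1 library). CPE alone had one within 2.5 and 10 kb, in control IgG replicate 2, with its summit 1820 bp from the 5′ end and 3 fragments there, against 1.47% and 4.47% of all genes. Around any transcript start, 1 of the 10 genes had an IgG peak within 2.5 kb (3.88% of all genes) and 2 of 10 within 10 kb (9.06%), the second being PCSK2 in control IgG replicate 3.

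**Figure D1:**
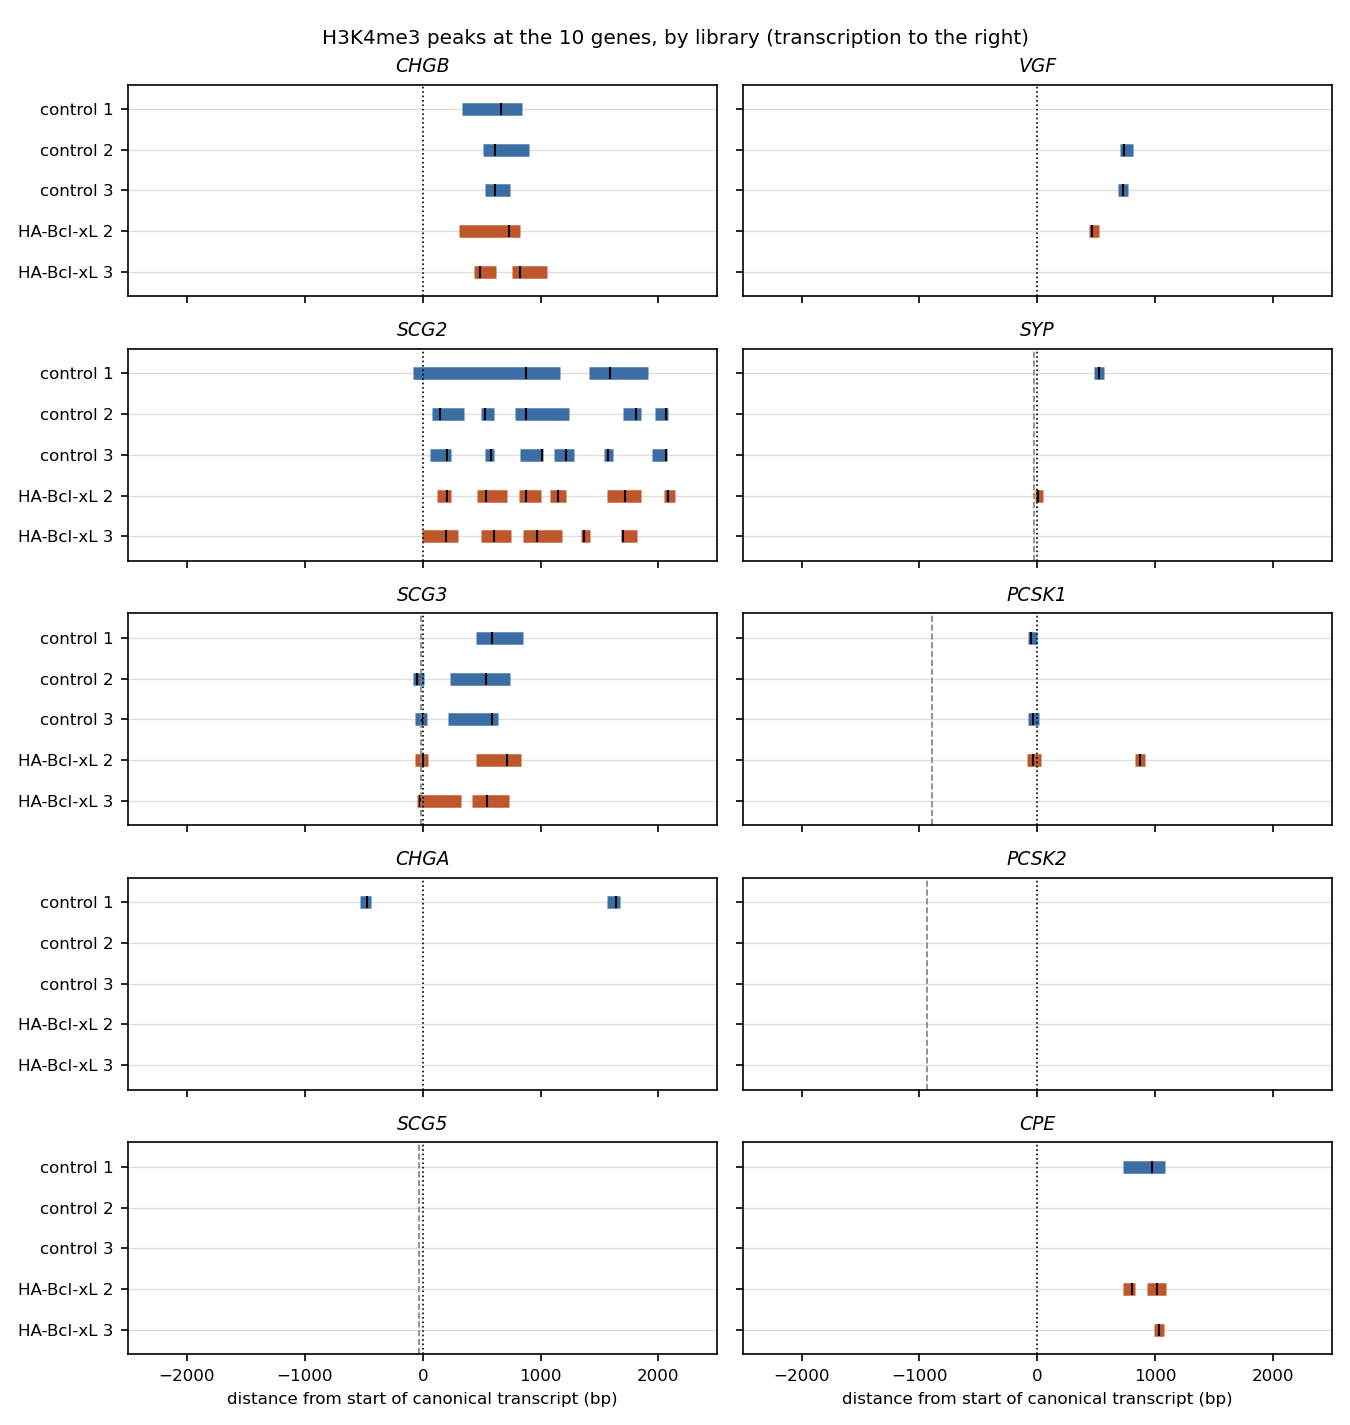
H3K4me3 peaks within 2.5 kb of the canonical transcript start of each of the 10 genes (x axis, base pairs, transcription to the right), with 1 row per library (blue, control; orange, HA-Bcl-xL). Bars are peaks, black ticks are summits, the dotted line is the canonical start and the dashed line is the gene's most 5′ end where that differs and lies in range. SCG2 was covered by a series of peaks downstream of its start in all 5 libraries, while PCSK2 and SCG5 had none.

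Among the granins, SCG2 (secretogranin II, the precursor of secretoneurin) had the widest coverage. Peaks covered 1755, 1115 and 834 bases within 2.5 kb of its 5′ end (chr2, position 224467079, minus strand) in control replicates 1 to 3. In replicates 2 and 3 of the HA-Bcl-xL line they covered 1087 and 1111 bases. Control replicate 1 was highest and control replicate 3 lowest, and both HA-Bcl-xL values lay between them. Averaged over the 5 libraries this came to 1180 bases, rank 1 of the 7101 genes with a mean of at least 100 bases, among which the median was 217 bases and the next gene reached 920 bases. By library, SCG2 ranked 1, 1 and 5 among all genes in the control libraries and 1 and 3 in the HA-Bcl-xL libraries. The rank depended on the window: by mean bases it was 20 within 1 kb and 4 within 10 kb.

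The signal at SCG2 was a chain of peaks rather than 1 peak. Within 2.5 kb there were 2, 5 and 6 peaks in the control libraries and 6 and 5 in the HA-Bcl-xL libraries, and from the first to the last base they spanned 1992, 2000, 2008, 2023 and 1825 bp. Control replicate 1 joined into a single peak of 1252 bp, plus a second of 503 bp, most of what the other libraries had in shorter pieces. The farthest peaks of control replicates 2 and 3 and HA-Bcl-xL replicate 2, with summits 2061, 2065 and 2082 bp downstream, lay outside both. The number of genes with at least as many peaks, SCG2 included, was 4795, 12 and 1 in the control libraries and 7 and 24 in the HA-Bcl-xL libraries. All 24 summits lay downstream of the start, from 151 to 2082 bp, in intron 1 of the canonical transcript. A second annotated SCG2 transcript start lay 74 bp from the nearest of them, in control replicate 2.

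The number of fragments at each summit, and the number the peak caller expected there (its local background), were solved from each peak's fold and p. The highest SCG2 summit within 1 kb had 44, 31 and 29 fragments in the control libraries and 36 and 33 in the HA-Bcl-xL libraries. The median local background of the SCG2 peaks was 5.93, 4.68 and 3.58 fragments in the control libraries and 4.42 and 4.54 in the HA-Bcl-xL libraries. The median over all peaks near a protein-coding 5′ end was 0.772, 0.627 and 0.514 in the control libraries and 0.694 and 0.695 in the HA-Bcl-xL libraries. In each library at least 99.9% of promoter peaks had a lower local background than SCG2. A high local background lowers a peak's fold and rank, and the best SCG2 peak within 1 kb stood at the 92.0, 82.6 and 88.8 percentile of its own list in control and the 91.7 and 87.0 percentile in HA-Bcl-xL. The lists do not record whether the caller took this background from the H3K4me3 library or from an IgG library, and its part in the number of separate peaks was not tested.

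SCG3 (secretogranin III, which tethers chromogranin A to the granule membrane) had a peak over its start in 4 libraries and another in intron 1 in all 5. Peaks covered 400, 602 and 525 bases within 2.5 kb of its 5′ end (chr15, position 51973689, plus strand) in control and 498 and 693 bases in HA-Bcl-xL, and the groups overlapped. The downstream summits lay 599, 549 and 595 bp from the 5′ end in control, and in the HA-Bcl-xL line 723 and 555 bp from it, all in intron 1. The summits at the start lay 41 bp upstream and 5 bp downstream of the 5′ end in control replicates 2 and 3. Those of HA-Bcl-xL replicates 2 and 3 lay 13 bp downstream and 10 bp upstream. Control replicate 1 lacked a peak at the start and had the strongest downstream one, with 30 fragments and the 96.4 percentile of its list. The best peaks of the other libraries had 15, 13, 16 and 14 fragments.

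CHGB (chromogranin B, a major core protein of dense-core granules) had its peaks downstream of the start too. They covered 511, 392 and 213 bases within 2.5 kb of its 5′ end (chr20, position 5892156, plus strand) in control and 514 and 482 bases in HA-Bcl-xL. The summits lay 664, 610 and 610 bp downstream in control, 730 bp in HA-Bcl-xL replicate 2, and 487 and 822 bp in HA-Bcl-xL replicate 3, all in intron 1. The best peak had 20, 19 and 12 fragments in control and 16 and 18 in HA-Bcl-xL. It stood at the 82.1, 86.6 and 64.6 percentile in control and at the 77.6 and 86.5 percentile in HA-Bcl-xL. Control replicate 3, the shortest list, had the fewest bases, the fewest fragments and the lowest percentile of the 5.

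For each of these 3 genes, the longest stretch under peaks in all 5 libraries is shown, because it is where the libraries overlap. All 3 lie in intron 1, and capitals mark CpG dinucleotides. SCG2 had 4 such stretches, of 58, 78, 122 and 153 bases, and the one of 153 bases (chr2:224466078-224466230, minus strand) held 0 CpG and was 32.7% G+C. The CHGB stretch of 97 bases (chr20:5892683-5892779, plus strand) held 1 and was 41.2% G+C, and the SCG3 stretch of 187 bases (chr15:51974152-51974338, plus strand) held 2 and was 33.2% G+C.
SCG2: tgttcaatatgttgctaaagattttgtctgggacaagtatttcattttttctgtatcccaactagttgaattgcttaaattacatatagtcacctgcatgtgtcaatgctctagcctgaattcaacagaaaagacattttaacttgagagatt
CHGB: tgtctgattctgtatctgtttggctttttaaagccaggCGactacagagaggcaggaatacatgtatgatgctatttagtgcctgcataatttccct
SCG3: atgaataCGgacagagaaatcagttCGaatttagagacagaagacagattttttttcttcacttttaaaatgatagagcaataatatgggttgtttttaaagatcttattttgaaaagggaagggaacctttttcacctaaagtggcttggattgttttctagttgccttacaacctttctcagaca

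**Figure D2:**
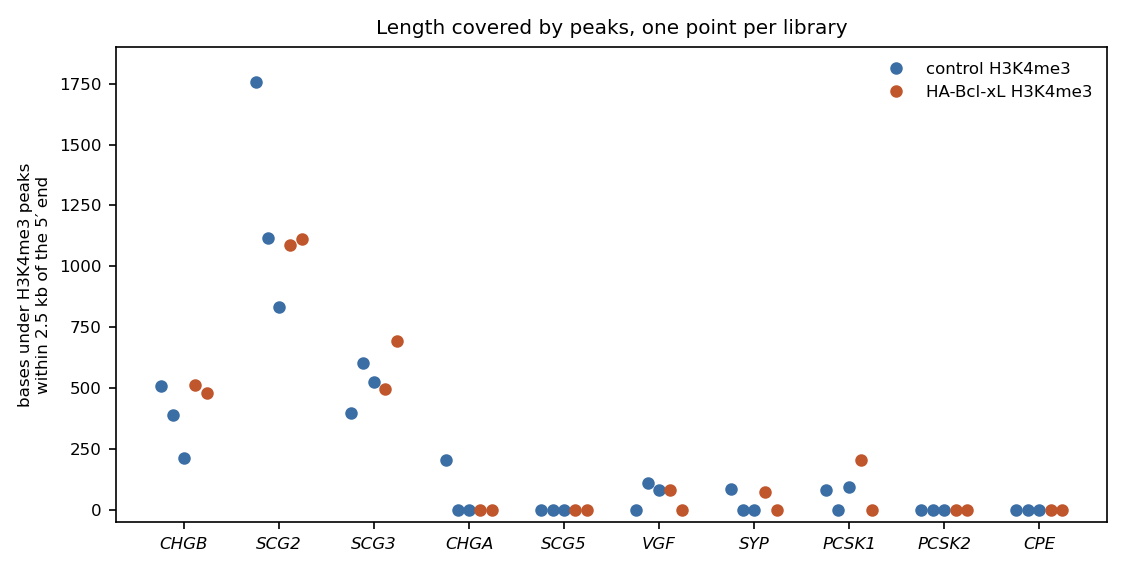
Bases under H3K4me3 peaks within 2.5 kb of the 5′ end (y axis) for the 10 genes (x axis), with 1 point per library (blue, control; orange, HA-Bcl-xL) and no mean drawn. SCG2 lies between 834 and 1755 bases, above CHGB and SCG3, and the other 7 genes have at least 1 library at 0.

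CHGA (chromogranin A, the granin measured in blood as a neuroendocrine tumor marker) had H3K4me3 peaks in control replicate 1 only. Both were narrow. The first was 97 bp wide with its summit 471 bp upstream of the 5′ end (chr14, position 93389495, plus strand), 12 fragments and the 49.7 percentile, and the second was 111 bp wide, 1641 bp downstream in intron 2, with 10 fragments and the 27.8 percentile. The other 4 libraries had no peak within 10 kb of a CHGA transcript start.

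VGF (a granin-like protein cut into neuropeptides) had 1 peak in each of 3 libraries. In control replicates 2 and 3 the summits lay 733 and 729 bp downstream of its 5′ end (chr7, position 100808850, minus strand) in exon 2, with 15 and 11 fragments and at the 83.2 and 65.2 percentile. In HA-Bcl-xL replicate 2 the summit lay 464 bp downstream in intron 1, with 9 fragments and at the 30.4 percentile. A second annotated VGF transcript start lay 9 bp from this summit, and 278 and 274 bp from those of control replicates 2 and 3. The longest list, control replicate 1, had none. Peaks 10502 bp downstream in control replicate 3 and 11074 bp downstream in HA-Bcl-xL replicate 3 lay nearest the start of AP1S1, at 82 and 12 bp.

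Of the enzymes, PCSK1 (PC1/3) had a peak at the start of its canonical transcript in 3 libraries. That start lies 895 bp downstream of the gene's 5′ end (chr5, position 95769847, minus strand). The summits lay 50 and 33 bp upstream of the canonical start in control replicates 1 and 3 and 37 bp upstream in HA-Bcl-xL replicate 2, with 12, 9 and 11 fragments. The peaks were 83, 94 and 120 bp wide and stood at the 31.3, 36.1 and 32.3 percentile, so position and rank were alike in the 3 libraries that had the peak. The median peak widths of these lists were 128, 112 and 115 bp. The element TGACGTCA of PCSK1, shown above at -77 to -70, lay wholly under the peak in all 3 libraries. At SCG2 a peak covered the element in control replicate 1 alone, and at VGF in none. For the other genes with the element the overlap is not reported here, so these genes do not give the full picture. HA-Bcl-xL replicate 2 had a second peak 1768 bp from the 5′ end, with 10 fragments. Control replicate 3 had a second peak in intron 6, 19293 bp from the 5′ end, with 3 fragments.

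CPE, which trims the cut peptides, had H3K4me3 peaks only at an inner start. Its most 5′ end (chr4, position 166282346, plus strand) lies 17814 bp upstream of the canonical start, and no H3K4me3 peak lay within 10 kb of it. From the canonical start the summits lay 977 bp downstream in control replicate 1, 800 and 1017 bp in HA-Bcl-xL replicate 2 and 1029 bp in HA-Bcl-xL replicate 3, all in intron 1. They had 14, 13, 10 and 7 fragments and stood at the 56.6, 56.7, 25.3 and 1.25 percentile. Control replicates 2 and 3 had none there.

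PCSK2 (PC2) and SCG5 (7B2, the chaperone that PC2 needs to become active) had no H3K4me3 peak within 10 kb of any transcript start in any of the 5 libraries. The only H3K4me3 peak in the PCSK2 gene was in intron 7 in HA-Bcl-xL replicate 2, with 3 fragments at its summit. The lists hold only peaks past the caller's threshold, so a signal below it at these promoters was not detectable here.

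SYP (synaptophysin, a membrane protein of small synaptic-like vesicles) had weak peaks. In control replicate 1 the summit lay 547 bp downstream of its 5′ end (chrX, position 49056677, minus strand) in intron 1, with 5 fragments and at the 12.1 percentile. In HA-Bcl-xL replicate 2 it lay 30 bp downstream in exon 1, with 6 fragments and at the 29.7 percentile. The median over all peaks of a list was 9 to 12 fragments, so both were below it. Peaks between 8753 and 9251 bp downstream, in exon 6 or intron 6, were found in control replicates 1 and 3 and HA-Bcl-xL replicate 2.

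**Figure D3:**
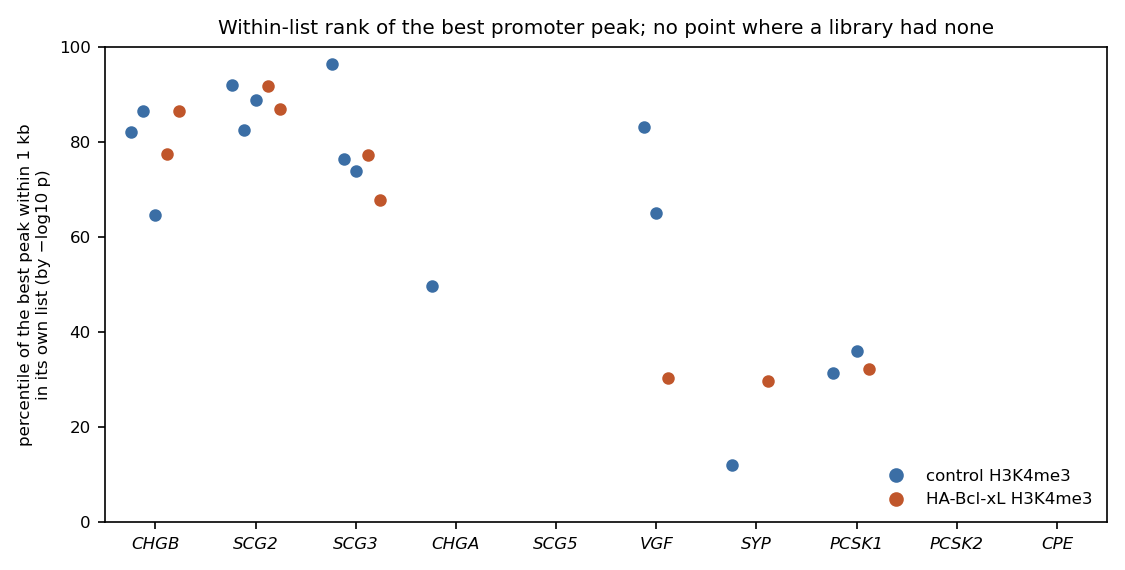
Percentile of the best H3K4me3 promoter peak in its own list, ordered by −log10 p (y axis), for the 10 genes (x axis), with 1 point per library that had a peak (blue, control; orange, HA-Bcl-xL). CHGB, SCG2 and SCG3 have 5 points each, from the 64.6 to the 96.4 percentile, and no point of PCSK1 or SYP is above the 36.1 percentile.

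The summits of this family lay mostly downstream of the most 5′ end. Of 50 H3K4me3 peaks within 2.5 kb of a 5′ end, 47 had the summit downstream, 24 of them at SCG2. Counted from the canonical transcript start, 43 of the 50 were downstream, the difference being the 3 PCSK1 summits and 1 SCG3 summit that lie between these starts. Over all protein-coding genes 64.3 to 66.1% of such peaks per library were downstream, with a median offset of 276.5 to 312 bp. Peaks of 1 gene in several libraries are not independent, so the count is a description.

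**Figure D4:**
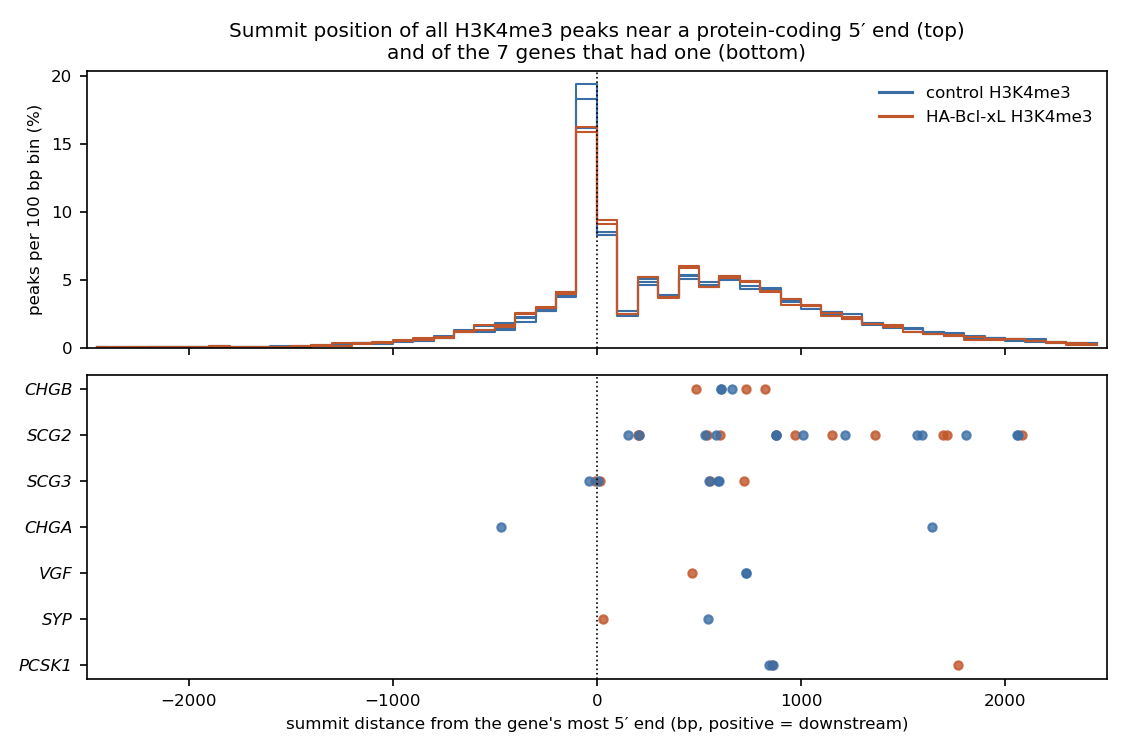
Upper panel: share of H3K4me3 peaks near a protein-coding 5′ end (y axis, percent per 100 bp bin) by summit distance from it (x axis, base pairs), with 1 line per library (blue, control; orange, HA-Bcl-xL). Lower panel: the 50 peaks of the 7 genes that had one, with 1 point per peak, of which 47 lie to the right of the 5′ end.

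Base composition varied widely within the family, both among the genes marked in all 5 libraries and among the others. Within 1 kb on each side of the 5′ end, SCG2 was 34.1% G+C with 22 CpG, SCG3 44.3% with 47 and CHGB 48.2% with 73. Of the genes marked in fewer libraries or none, CPE was 38.4% with 16 CpG, PCSK1 45.6% with 42, SCG5 46.3% with 40 and PCSK2 54.3% with 98. SYP was 58.7% with 94 CpG, CHGA 62.1% with 104 and VGF 62.5% with 138. At these 5′ ends CPE, PCSK1 and SCG5 were lower in G+C than CHGB without being marked in all 5 libraries. For 2 of them this depended on the start: around the canonical starts, where their peaks lay, CPE was 54.5% with 97 CpG and PCSK1 51.1% with 63. The median over all genes was 90 CpG, over genes with a peak in all 5 libraries 101, and over genes with a peak in none 48. When genes were split into 10 equal classes by G+C, SCG2 lay in the lowest, where 2.43% of genes had a peak in all 5 libraries, and CHGA and VGF in the ninth, where 16.8% did. Among the 94 genes of the lowest class that passed the filter on mean bases, SCG2 had the most bases under peaks. That follows from its rank of 1 among all genes tested. The other genes marked in every library, SCG3 and CHGB, lay in classes where 13.8% and 27.8% of genes were.

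**Figure D5:**
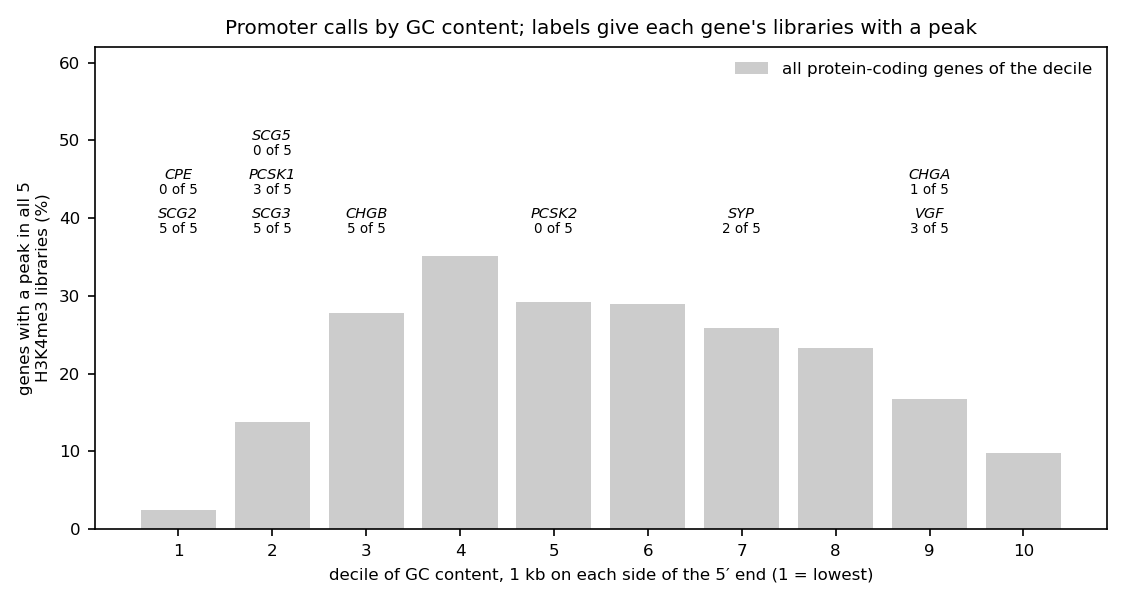
Share of protein-coding genes with an H3K4me3 peak within 1 kb in all 5 libraries (y axis, percent, bars) by decile of G+C within 1 kb on each side of the 5′ end (x axis). Labels above the bars place each of the 10 genes in its decile and give the number of libraries in which it had a peak, and their height has no meaning. At these 5′ ends SCG2 and CPE share the lowest decile, with 5 and 0 libraries, while around its canonical start CPE is 54.5% G+C and has a peak in 3 libraries.

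Whether Bcl-xL overexpression altered the width of the mark was tested by limma on log2 of the bases under peaks within 2.5 kb plus 50, over 7101 genes. CHGB, SCG2 and SCG3 passed the filter of a mean of at least 100 bases. The other 7 did not and have no test. The difference, HA-Bcl-xL minus control, was 0.31 (SE 0.305) for CHGB, -0.23 (SE 0.18) for SCG2 and 0.07 (SE 0.352) for SCG3 on the log2(bases + 50) scale, each with an adjusted p of 0.998 by limma with Benjamini-Hochberg adjustment over all genes tested. Over all genes the fit called 0 wider (0%) and 0 narrower (0%) at an adjusted p under 0.05, and 275 had an unadjusted p under 0.05. In data simulated for this comparison with 200 of the 7101 genes changed, the fit recovered 0 at a log2 change of 1, 0 at 2 and 159 at 4 (with 6 false calls), so the 0 calls say little about changes of 2 or less on the log2 scale. For SCG3 the difference was -0.20 without HA-Bcl-xL replicate 3 and -0.29 without control replicate 1, and for SCG2 it was 0.17 among peaks with a −log10 q of 5 or more, so neither direction is fixed by these libraries.

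Of a list of 26 other genes of the pathway, 3 had a promoter peak in all 5 H3K4me3 libraries (11.5%, against 21.3% of all genes), 8 in 1 to 4 and 15 in none (51.8% of all genes had one in none). The 3 were QPCTL, the Golgi glutaminyl cyclase, MBTPS1, the site-1 protease of the convertase family, and CCDC186, which acts in granule maturation. With any transcript start the count was 5 of 26, against 26.5% of all genes. PCSK5, named after its values were seen, was the only gene of the list with a peak in the 2 HA-Bcl-xL libraries that every control lacked, a pattern found in 0.844% of all genes. None of the list had an IgG peak within 1 kb. Of the list, 9 genes were tested by limma and 0 were called, with a median log2 difference of 0.16 against 0.01 over all genes tested.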

How the data were processed

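CUT&RUN for H3K4me3 and IgG was analysed from 11 deposited narrowPeak lists. Each list belongs to a single library, with no pooling of replicates, and the labels gave its group and replicate number. The submitters' processing notes name bcl2fastq 2.20, Trimmomatic 0.36, Bowtie2 2.2.9, MACS2 2.1.1, deepTools 3.5.1 and the build hg19. Their roles, the caller's settings, its control library and the treatment of duplicates are not given in the sources used here. Each peak carries the score, the fold enrichment (a ratio), the −log10 p and the −log10 q that the authors deposited, and these were used only within their own list. The lowest −log10 q was about 2 in every list.

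Only chromosomes 1 to 22, X and Y were used, and peaks were assigned to GENCODE release 44 genes lifted to GRCh37, with at least 1 bp inside the window, which was 1 kb around the most 5′ annotated end unless another is named. Percentiles are of −log10 p within a list. Fragments at a summit and the local background were solved as the whole number n that gives both the fold, (n + 1) / (background + 1), and a Poisson p. A solution within 0.001 of the −log10 p existed for 95.9% to 99.97% of a list's peaks. Such counts cover counting error only. Bases under peaks within 2.5 kb were tested with limma 3.58.1 (R 4.3.3) on log2(bases + 50), for genes with a mean of at least 100 bases, after subtracting each library's median, and p-values were adjusted by Benjamini-Hochberg. The fit was tested on simulated data. For 2 of the 5 genes with the element TGACGTCA, its position and its overlap with peaks are not reported here. The genes and lists were chosen with earlier results of these data known. All 10 genes are named, and of the 26 pathway genes those with a promoter peak in all 5 H3K4me3 libraries or a limma call. PCSK5 was named outside this rule, after its values were seen. Alternatives were other windows and starts, lists cut to equal length or to a −log10 q of 5 or more, other pseudocounts, filters and centring, a block on replicate number, and omission of single libraries. The canonical transcript start was added after seeing the data. Python 3.11.15, numpy 2.4.6, pandas 2.3.3, scipy 1.17.1, pysam 0.24.0 and matplotlib 3.10.9 were used.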

Additional observations from a re-analysis of the deposited data

How the results depend on the processing

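The count of 3 genes with a promoter peak in all H3K4me3 libraries did not change under any window, start, q or length alternative, or when single libraries were left out. The difference in genes per library, -0.5, ranged from -2 (without HA-Bcl-xL replicate 2) to 1 (without HA-Bcl-xL replicate 3), was 0.167 with any or the canonical transcript start, and was -1.33 with equal list lengths or a −log10 q of at least 5. The count of genes with an IgG peak was 1 within 2.5 kb and 1 within 10 kb. With a mean of at least 300 bases, limma called 1 gene over all those tested, CHD2 (log2 difference 1.44, adjusted p 0.0477 by limma), named after its values were seen. Control replicate 3 had 0 bases there. The number of genes with an unadjusted p under 0.05 ranged from 81 to 448 over the alternatives. The SCG2 difference was 0.17 among peaks past that q. The SCG3 difference was -0.67 with equal list lengths and -0.30 with the replicate block, and ranged from -0.29 to 0.36 when single libraries were left out, with -0.20 without HA-Bcl-xL replicate 3. The replicate numbers may be only names: the deviations of same-numbered libraries correlated at r = 0.0346 over 7101 genes, which are not independent. With the replicate block limma again called 0 genes. The causes of these changes were not tested. The lists hold no read totals and no signal below the caller's threshold, so an unlisted promoter is not shown to lack the mark.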
